A study of Mus musculus with 12 samples.

Results

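The 10 genes followed here are made by absorptive colonocytes, the cells that line the surface of the colon, and most of their products sit on or just beneath the brush border. They were chosen by symbol: Cdhr2, Cdhr5, Vil1, Krt20, Mep1a, Ceacam20, Ceacam1, Lypd8, Guca2a and Guca2b. All 10 were found in the platform annotation, out of 19505 named genes and 22206 probes, each with 1 probe. Expression was measured with Affymetrix arrays in colon tissue of healthy male mice aged 12 to 16 weeks. The genotypes were the double knockout (DKO), which lacked both LAO1 and IL4i1, the LAO1 knockout, the IL4i1 knockout and wild type, with 3 arrays each and 12 in all. Both deleted genes encode secreted L-amino acid oxidases, and the study asked how their combined loss leads to colonic inflammation. Of each genotype 4 mice were selected, while 3 arrays are listed. The labels do not give the alleles, the strain background, or whether each array stands for 1 mouse. The p-values thus measure only how far these samples differ among themselves, which may be technical.

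A brush border is a dense lawn of microvilli, each a bundle of actin filaments under a membrane, on the face of the cell that meets the gut contents. Its tips are tied to one another by protocadherins, its membrane carries peptidases, transporters and adhesion receptors, and the cell sheds or secretes peptides and anti-bacterial proteins from it. In the colon these features appear as cells leave the crypt and reach the surface, and they are used to follow the maturation of absorptive cells.

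Values are the authors' log2 expression values, so a difference of 1 is a doubling, and a level of one gene's probe cannot be set against that of another. Differences were tested with limma in 1 fit over all 12 arrays, with p-values adjusted over all 22206 probes and a threshold of 0.05. In the DKO against wild type 5 probes of the whole table passed (0.0225%), and 0 of the 10 genes did. The lowest adjusted p among them was 0.368. Without adjustment, 3 of the 10 genes stood lower in the DKO at a p under 0.05, namely Mep1a, Ceacam20 and Cdhr5, against 3.81% of all probes. Guca2b alone stood higher at that p, against 3.63% of all probes. The median difference of the 10 genes was -0.29, and that of all named genes 0.0. In tissue of mixed cells, fewer cells of a type and less RNA per cell cannot be told apart.

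Il4i1 had no named probe here, and the single Lao1 probe was dim on every array, at 2.64 to 3.56, so neither deletion was checked by these values and the genotypes rest on the labels. Markers of epithelium in general, such as Epcam, Cdh1 and Krt8, were present on every array, with list means of 15.19 to 15.7 in the DKO, 14.89 to 15.36 in LAO1 knockout colon, 15 to 15.96 in IL4i1 knockout colon and 15.08 to 15.2 in wild type. DKO replicate 2 carried pancreatic acinar transcripts, with a list mean of 15.73 over 11 genes against 3.76 to 4.34 on the other 11 arrays. Without that array the DKO differed from wild type by -2.68 in Mep1a, -1.62 in Ceacam20, -0.81 in Cdhr5 and 1.63 in Guca2b (adjusted p = 0.211, 0.297, 0.47 and 0.253), and again 0 of the 10 genes passed. Of all 22206 probes 38 passed there without that array, against 5 with it. Interferon response genes stood higher in the DKO than in wild type, 16 of 18 at an unadjusted p under 0.05 and 0 past the adjusted threshold. With a single knockout as reference, the DKO was higher past that threshold for 8 of 18 (LAO1) and 11 of 18 (IL4i1). For the interaction, defined below with Ceacam20, 10 of 18 passed. Relative to wild type, 8 were lower in LAO1 knockout colon and 10 in IL4i1 knockout colon at an unadjusted p under 0.05, and 0 passed. Of all probes 4.34% were lower at that p in the IL4i1 knockout. The lower share in the LAO1 knockout is not given here. The mean of the interferon list was 8.41 to 9.75 in the DKO, 6.25 to 6.79 in LAO1 knockout colon, 6.23 to 6.28 in IL4i1 knockout colon and 6.78 to 7.86 in wild type. Array medians lay between 5.42 and 5.49, and precision is limited by the number of arrays.

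Cdhr2 and Cdhr5 encode the protocadherins that meet between neighbouring microvilli and hold their tips together. Cdhr5 was at 16.52, 16.48 and 16.08 in the DKO, 16.78, 17.73 and 17.05 in LAO1 knockout colon, 17.66, 17.16 and 16.66 in IL4i1 knockout colon and 17.2, 17.42 and 16.7 in wild type. It was the only one of the 10 genes for which all 3 DKO arrays lay below all 9 other arrays, a pattern that 0.892% of all probes showed. The mean was 16.36 ± 0.24 in the DKO and 17.11 ± 0.37 in wild type (SD, n = 3 each), a difference of -0.75 (SE 0.31, limma, adjusted p = 0.631). Against the LAO1 knockout the DKO differed by -0.83 (adjusted p = 0.595), and against the IL4i1 knockout by -0.8 (adjusted p = 0.402). None of these passed, although each had an unadjusted p under 0.05.

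Cdhr2, its binding partner, was at 11.35, 11.94 and 12.15 in the DKO, 11.56, 12.43 and 12.57 in LAO1 knockout colon, 12.32, 13.08 and 11.52 in IL4i1 knockout colon and 12.31, 12.57 and 11.84 in wild type, so all 4 groups overlapped. The difference of the DKO from wild type was -0.43 (95% interval -1.26 to 0.4, adjusted p = 0.854). Of the other parts of the tip complex, the motor Myo7b differed by -0.25 and the scaffold Ush1c by -0.16 between DKO and wild type, and the light chain Calml4 and the scaffold Anks4b by 0.21 and 0.14. Of the 6 genes of the complex 0 passed, and Cdhr5 was the 1 with an unadjusted p under 0.05. The list median was -0.21.

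Vil1 encodes villin, which bundles and severs the actin filaments of the microvillus core. It was at 13.52, 13.19 and 13.36 in the DKO, 12.9, 13.06 and 12.73 in LAO1 knockout colon, 13.19, 13.52 and 12.31 in IL4i1 knockout colon and 13.15, 13.39 and 12.5 in wild type. The DKO arrays lay above all LAO1 knockout arrays and overlapped the other 2 genotypes. The difference was 0.34 from wild type (95% interval -0.31 to 1.0, adjusted p = 0.852) and 0.46 from the LAO1 knockout (adjusted p = 0.827). Krt20, the keratin of mature surface cells, was at 16.81, 16.43 and 17.47 in the DKO, 15.73, 16.82 and 16.13 in LAO1 knockout colon, 16.86, 18.01 and 15.06 in IL4i1 knockout colon and 16.61, 17.21 and 16.56 in wild type. All genotypes overlapped for Krt20, and the difference of the DKO from wild type was 0.11, with a 95% interval of -1.11 to 1.33 (adjusted p = 0.985). These intervals include changes in either direction, so the arrays did not settle whether villin and Krt20 stayed level.

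With Vil1, 18 genes of the microvillus core and its membrane links were measured, with a median difference of -0.04 between DKO and wild type. Of these 0 passed, 1 was lower and 1 higher at an unadjusted p under 0.05. Baiap2l1, whose product curves the membrane and promotes microvillus elongation, was at 10.79, 10.94 and 10.81 in the DKO, against 11.72, 11.83 and 11.53 in wild type. The DKO arrays lay below every wild type array, and the difference was -0.85 (SE 0.21, adjusted p = 0.368). Both single knockouts also lay below wild type without overlap, by -0.46 for loss of LAO1 (adjusted p = 1) and by -0.39 for loss of IL4i1 (adjusted p = 0.675). The shares of all probes that lay lower without overlap in the single knockouts are not given here. The related Baiap2l2 stood in the other direction, at 10.28, 8.88 and 9.74 in the DKO and 9.08, 8.38 and 8.63 in wild type, with overlapping arrays (difference 0.94, adjusted p = 0.575). Myo1a, the motor that tethers the membrane to the core, differed by 0.62 (adjusted p = 0.674) and Plac8 by 0.98 (adjusted p = 0.691). Of 7 gut keratins, Krt20 included, 0 passed and 0 had an unadjusted p under 0.05. Their median was 0.32, with Krt8 at 0.32, Krt18 at 0.33, Krt7 at 0.67 and Krt23 at 0.45.

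Mep1a and Ceacam20 gave the largest differences of the DKO from wild type among the 10 genes. Mep1a encodes the alpha subunit of meprin, a metalloprotease of the brush border that is also secreted. It was at 10.8, 11.4 and 9.63 in the DKO, 11.12, 13.64 and 12.16 in LAO1 knockout colon, 13.17, 12.98 and 10.9 in IL4i1 knockout colon and 12.86, 13.22 and 12.62 in wild type. The DKO arrays lay below all wild type arrays, but the lowest array of each single knockout fell within the DKO range. The mean was 10.61 ± 0.9 in the DKO and 12.9 ± 0.3 in wild type (SD, n = 3 each), 4.89-fold lower in the DKO on the linear scale. The log2 difference was -2.29 (SE 0.66, 95% interval -3.72 to -0.86, adjusted p = 0.435). Against the LAO1 knockout the DKO differed by -1.7 (adjusted p = 0.626) and against the IL4i1 knockout by -1.74 (adjusted p = 0.398).

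The partner subunit gene Mep1b was at 9.64 ± 0.46 in the DKO and 10.53 ± 0.54 in wild type, a difference of -0.89 (adjusted p = 0.762). Of 18 brush border peptidases and hydrolases looked for, 15 were measured, 0 passed, and Mep1a was the 1 with an unadjusted p under 0.05. The list median was -0.3, with 12 of 15 below 0. The alkaline phosphatase Alpi differed from wild type by -1.1 in the DKO (adjusted p = 0.848), by -1.42 in the LAO1 knockout (adjusted p = 1) and by -2.03 in the IL4i1 knockout (adjusted p = 0.651). In the DKO the aminopeptidase Enpep differed by -0.44 and the trehalase Treh by -0.3.

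Ceacam20 encodes an adhesion receptor of the microvillus membrane whose tail is phosphorylated by Src and then binds the kinase Syk. It was at 9.84, 9.55 and 10.99 in the DKO, 11.88, 12.83 and 12.13 in LAO1 knockout colon, 10.98, 12.97 and 11.47 in IL4i1 knockout colon and 11.98, 12.37 and 11.76 in wild type. Replicates 1 and 2 of the DKO lay below all 9 other arrays, and replicate 3, at 10.99, lay just above the lowest IL4i1 knockout array, at 10.98. The mean was 10.13 ± 0.76 in the DKO, 12.28 ± 0.49 in LAO1 knockout colon, 11.81 ± 1.04 in IL4i1 knockout colon and 12.04 ± 0.31 in wild type (SD, n = 3 each). In the DKO Ceacam20 was 3.76-fold lower than in wild type, a log2 difference of -1.91 (SE 0.48, 95% interval -2.94 to -0.88, adjusted p = 0.368). Neither single knockout showed a like difference from wild type: it was 0.24 in the LAO1 knockout (95% interval -0.78 to 1.27) and -0.23 in the IL4i1 knockout (-1.26 to 0.8).

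Against the LAO1 knockout the DKO differed in Ceacam20 by -2.15, a 4.45-fold lower level (SE 0.48, 95% interval -3.18 to -1.13). Its adjusted p of 0.162 was the lowest among the 10 genes in any comparison. The value passed when IL4i1 knockout replicate 2 was left out (adjusted p = 0.0398), which changed only the shared estimate of the spread. Against the IL4i1 knockout the difference was -1.68 (adjusted p = 0.195). The interaction, which is the DKO less both single knockouts plus wild type and asks whether the losses add up, was -1.92 (SE 0.67, adjusted p = 0.526).

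For the partners of Ceacam20 the differences were smaller, and they did not pass. Syk was at 9.38 ± 0.05 in the DKO and 9.11 ± 0.41 in wild type (difference 0.28, adjusted p = 0.867), and Src differed by -0.09 (adjusted p = 0.959). Of the 11 genes of the CEACAM family and these partners 0 passed, the median was 0.0, and Ceacam20 was the 1 with an unadjusted p under 0.05. Ceacam10 was at 9.13 ± 0.27 in the DKO and 8.58 ± 0.15 in wild type (difference 0.55, adjusted p = 0.773), and Ceacam19 differed by 0.13. Ceacam1, an inhibitory adhesion receptor of epithelial and immune cells, read 19.93 on 11 of 12 arrays and 19.91 on IL4i1 knockout replicate 2. The highest value in the table was 19.93, reached by 22 probes on at least 1 array, so the Ceacam1 probe was at its ceiling and no difference could be measured.

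Lypd8, a membrane-anchored protein that binds bacterial flagella and keeps motile bacteria off the epithelium, was also near the top of the scale. It was at 19.08, 18.58 and 19.12 in the DKO, 19.08 on all LAO1 knockout arrays, 19.18, 19.23 and 19.14 in IL4i1 knockout colon and 19.09, 19.08 and 19.08 in wild type. The value 19.08 recurred on 6 arrays, and whether this probe was compressed below the top of the scale was not tested. The IL4i1 knockout arrays lay above all arrays of wild type by a mean of 0.1 (adjusted p = 0.924), and above all DKO arrays. DKO replicate 2 held the lowest value, and without it the difference of the DKO from wild type moved to 0.02, against -0.16 with it (adjusted p = 0.895). Of 10 genes for proteins that shield the luminal face, Lypd8 among them, 9 were measured and 0 passed or had an unadjusted p under 0.05. The lectin Zg16, which binds Gram-positive bacteria, differed by -0.79 between DKO and wild type (adjusted p = 0.745) and the membrane mucin Muc13 by -0.17. The antimicrobial lectin gene Reg3b was at 18.59, 6.52 and 4.75 in the DKO and 3.7, 6.74 and 4.72 in wild type, and Reg3g at 16.34, 4.47 and 3.09 in the DKO and 3.83, 6.07 and 4.49 in wild type. For both, replicate 1 was the only DKO array above the wild type arrays. The differences of 4.9 and 3.17 came with SDs of 7.53 and 7.28 over the 3 DKO arrays. Some single knockout arrays also lay above wild type. LAO1 knockout replicate 2 had Reg3b at 12.46 and Reg3g at 7.06, and IL4i1 knockout replicate 1 had them at 10.19 and 6.35. Reg3b was at 6.95 in IL4i1 knockout replicate 3.

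Guca2a and Guca2b encode guanylin and uroguanylin, peptides released into the lumen that activate the receptor guanylate cyclase C, raise cyclic GMP in the epithelium and so drive chloride and water out of the cell. Guca2b was the 1 member that stood higher in genotypes lacking LAO1. It was at 7.83, 7.19 and 8.03 in the DKO, 7.23, 8.59 and 7.78 in LAO1 knockout colon, 7.21, 7.29 and 5.7 in IL4i1 knockout colon and 6.1, 6.15 and 6.66 in wild type. All arrays of the DKO and of the LAO1 knockout lay above all wild type arrays, and those of the IL4i1 knockout lay on both sides. The mean was 7.68 ± 0.44 in the DKO, 7.87 ± 0.68 in LAO1 knockout colon, 6.73 ± 0.9 in IL4i1 knockout colon and 6.3 ± 0.31 in wild type (SD, n = 3 each). The difference from wild type was 1.38 in the DKO (SE 0.43, 2.6-fold, adjusted p = 0.493) and 1.56 in the LAO1 knockout (SE 0.43, 2.96-fold, adjusted p = 1). These comparisons share the wild type arrays and neither passed. In the IL4i1 knockout the difference was 0.43 (95% interval -0.49 to 1.35).

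Guca2a was at 17.59, 17.59 and 17.6 in the DKO, 17.38, 18.22 and 18.21 in LAO1 knockout colon, 18.11, 18.88 and 17.24 in IL4i1 knockout colon and 18.14, 17.88 and 18.03 in wild type. The DKO arrays lay below the wild type arrays and inside the range of both single knockouts, and the difference from wild type was -0.42 (95% interval -1.16 to 0.32, adjusted p = 0.834). Of the 8 genes of the guanylin route 0 passed, and the median was -0.42. Cftr, the chloride channel that cyclic GMP opens, was at 13.82, 13.62 and 14.25 in the DKO and 14.62, 14.68 and 14.84 in wild type. The DKO arrays lay lower without overlap (difference -0.82, SE 0.35, adjusted p = 0.645). In the IL4i1 knockout Cftr was also lower than in wild type without overlap, by a larger difference of -1.08 (adjusted p = 0.533), and in the LAO1 knockout it differed by -0.27. Against wild type, 5.95% of all probes lay lower without overlap in the DKO. The share that lay lower without overlap in the IL4i1 knockout is not given here, so its Cftr values have no background beside them. In the DKO Pde5a, which degrades cyclic GMP, differed by -0.64 (adjusted p = 0.632). The exchangers Slc26a3 and Slc9a3 differed there by -0.67 and -0.42 (adjusted p = 0.818 and 0.916).

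**Figure D1:**
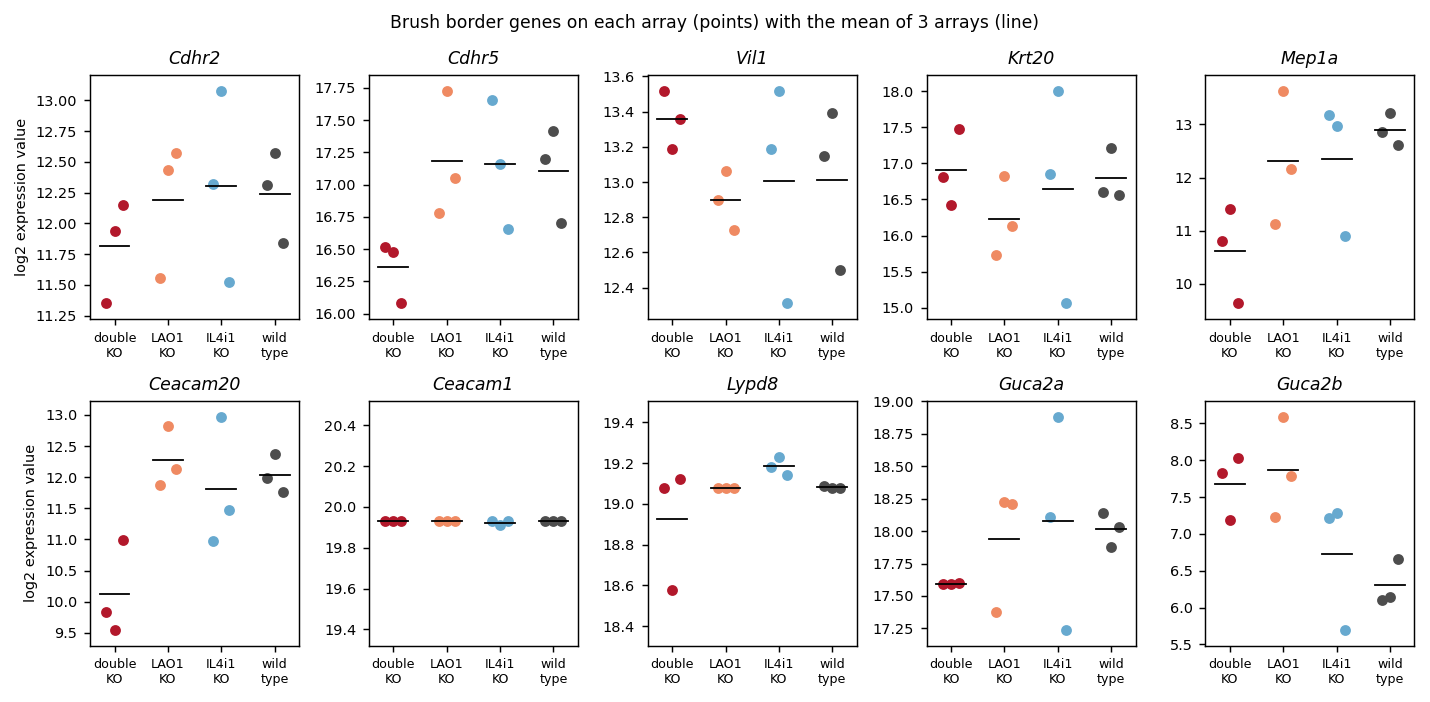
The log2 expression value of each of the 10 genes is plotted for the 3 arrays of each genotype (points) with their mean (line), on a y axis of its own for each gene that does not start at 0. Cdhr5 has all 3 double knockout points below all others, Ceacam20 and Mep1a have 2 of 3 there, and Ceacam1 is flat at its ceiling of 19.93.

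Arrays that did not overlap between DKO and wild type were found for 4 members on the lower side, Ceacam20, Mep1a, Cdhr5 and Guca2a, against 5.95% of all probes, and for 1 on the higher side, Guca2b, against 5.68%. In the LAO1 knockout against wild type 0 of 10 passed (0.0045% of all probes did). Guca2b was the 1 member with an unadjusted p under 0.05, against 1.45% of probes higher at that p, and the 1 whose arrays lay above those of wild type without overlap, against 4.67%. The median of the 10 genes was -0.03 there, and 0.01 over all named genes. In the IL4i1 knockout against wild type 0 of 10 passed (0.0135% of all probes), and 0 had an unadjusted p under 0.05, when 4.34% of probes were lower and 3.25% higher at that p. Lypd8 alone was without overlap, on the higher side (5.97% of all probes), and the median was 0.02, as over all named genes. Without IL4i1 knockout replicate 2 it was -0.29.

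The DKO was also set against each single knockout, with the same DKO arrays on one side. Against the LAO1 knockout 0 of 10 passed (0.14% of all probes). Ceacam20, Mep1a and Cdhr5 were lower at an unadjusted p under 0.05 (3.64% of probes). Ceacam20 and Cdhr5 were lower without overlap (6.46%), and Vil1 was higher without overlap (6.25%). The median was -0.26. Against the IL4i1 knockout 0 of 10 passed (0.477% of all probes). The same 3 genes were lower at an unadjusted p under 0.05 (4.66% of probes), and Guca2b was higher by 0.95 (5.17%; adjusted p = 0.493). Cdhr5 and Lypd8 were lower without overlap (6.62%), and the median was -0.37. In the interaction 0 of 10 passed (0.23% of all probes), Ceacam20 alone was lower at an unadjusted p under 0.05 (3.26%), and the median was -0.42.

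**Figure D2:**
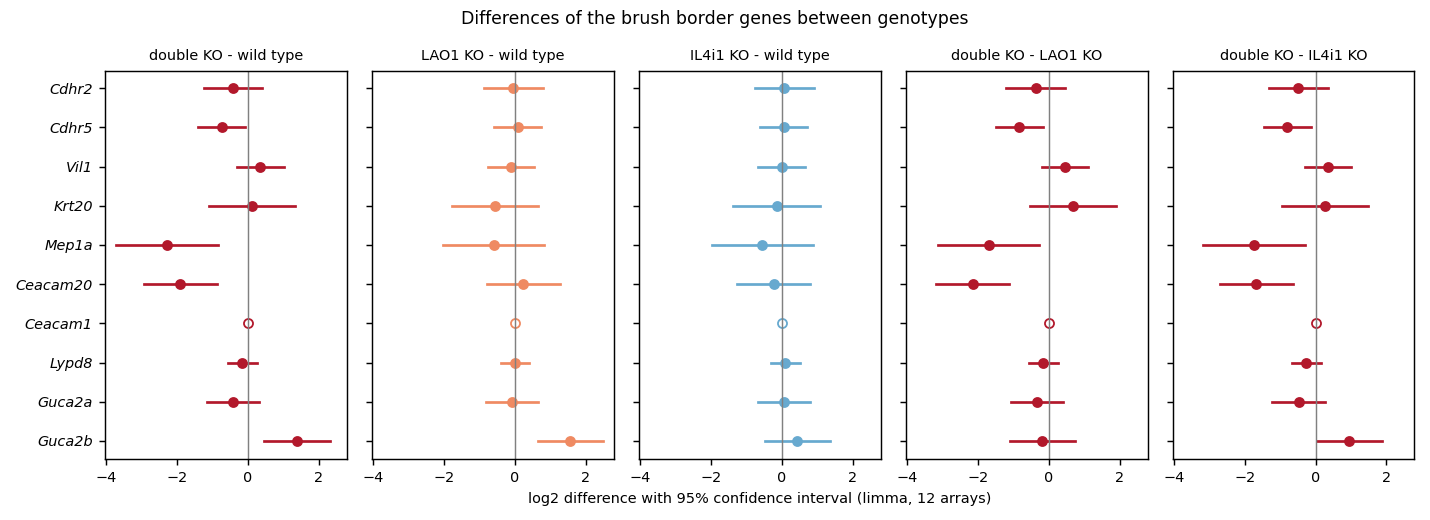
Each panel gives the log2 difference of the 10 genes in 1 comparison (points) with its 95% confidence interval from limma (lines). The open point without an interval is Ceacam1, whose probe was at the ceiling. Intervals of Mep1a, Ceacam20 and Cdhr5 lie below 0 in all 3 panels of the double knockout, before any adjustment, and that of Guca2b lies above 0 in the double knockout against wild type and against the IL4i1 knockout, and in the LAO1 knockout against wild type.

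The region around each start of transcription is shown for Ceacam20, Mep1a and Cdhr5, the 3 genes with the largest negative differences of the DKO from wild type, and for Guca2b, the 1 with the largest positive one. Each run is the RefSeq promoter sequence on GRCm38.p6, with 250 bases before the start and 50 after it. Capitals mark the letters TTTATG, or their reverse complement, which the intestinal homeobox factor CDX2 can bind.
Ceacam20, chr7:19965162-19965461, plus strand: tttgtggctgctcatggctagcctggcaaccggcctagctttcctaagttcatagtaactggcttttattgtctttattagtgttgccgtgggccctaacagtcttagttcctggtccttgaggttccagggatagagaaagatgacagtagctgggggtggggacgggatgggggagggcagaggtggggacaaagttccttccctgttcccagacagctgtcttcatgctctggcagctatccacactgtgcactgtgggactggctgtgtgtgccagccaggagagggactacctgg
Mep1a, chr17:43502724-43503023, minus strand: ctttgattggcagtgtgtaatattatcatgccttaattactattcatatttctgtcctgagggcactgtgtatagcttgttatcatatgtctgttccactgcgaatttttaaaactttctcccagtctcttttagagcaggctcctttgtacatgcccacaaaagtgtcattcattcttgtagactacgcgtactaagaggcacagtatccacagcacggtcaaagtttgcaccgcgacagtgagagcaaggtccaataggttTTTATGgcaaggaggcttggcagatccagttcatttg
Cdhr5, chr7:141276737-141277036, minus strand: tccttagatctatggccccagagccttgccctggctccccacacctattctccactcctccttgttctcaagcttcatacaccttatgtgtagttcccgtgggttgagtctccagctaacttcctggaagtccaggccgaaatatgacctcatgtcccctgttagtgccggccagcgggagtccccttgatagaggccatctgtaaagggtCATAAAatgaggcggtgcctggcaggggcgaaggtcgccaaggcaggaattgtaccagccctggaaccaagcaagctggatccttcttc
Guca2b, chr4:119658896-119659195, minus strand: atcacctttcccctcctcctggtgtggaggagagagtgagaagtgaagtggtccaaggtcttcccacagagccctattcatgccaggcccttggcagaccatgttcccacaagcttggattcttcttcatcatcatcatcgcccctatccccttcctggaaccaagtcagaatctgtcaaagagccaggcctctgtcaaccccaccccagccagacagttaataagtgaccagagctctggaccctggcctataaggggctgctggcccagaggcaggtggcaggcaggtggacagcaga
The letters TTTATG were searched on both strands. They were found in 2 of the 11 promoters listed for the 10 genes (Lypd8 has 2), beginning 39 bases before the start of Cdhr5 and at base 14 after the start of Mep1a. Among all 32851 RefSeq promoters the share that held them was 11.9%. A match or its absence describes these windows only.

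The spread within a genotype was often as large as the difference between genotypes, and it followed the array. In the LAO1 knockout, replicate 1 was the lowest of its group for 7 of the 8 genes other than Ceacam1 and Lypd8, which varied little, and replicate 2 the highest for 7. In the IL4i1 knockout, replicate 2 was the highest for 6 and replicate 3 the lowest for 7. In wild type, replicate 2 was the highest for 6 and replicate 3 the lowest for 6. The DKO had no such order, with replicate 3 highest for 5 and replicate 2 lowest for 4. Replicates 2 and 3 of the IL4i1 knockout differed most in Krt20, at 18.01 and 15.06.

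**Figure D3:**
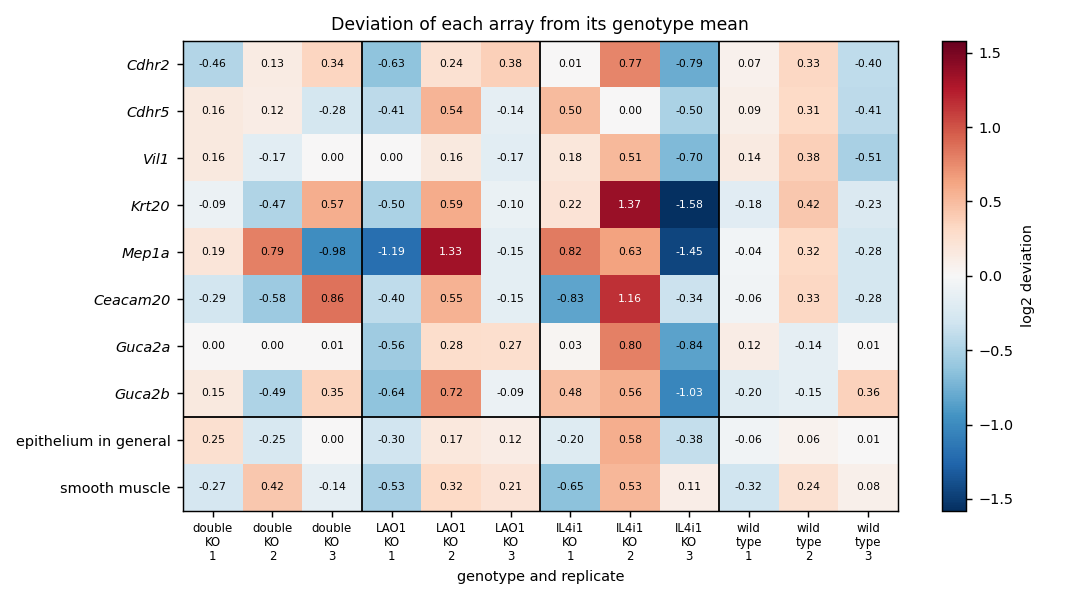
Each cell is the log2 deviation of an array from the mean of its genotype, for the 8 genes other than Ceacam1 and Lypd8 and, below the line, for the mean of the general epithelial and the smooth muscle markers. IL4i1 knockout replicate 2 is above its genotype mean or level with it for all 8 genes and replicate 3 is below for all 8. The DKO arrays deviate in both directions.

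The general epithelial markers moved with part of this order. Their list mean was 14.89 in LAO1 knockout replicate 1, against 15.36 and 15.31 in replicates 2 and 3, and in the IL4i1 knockout it was 15.96 in replicate 2 against 15.18 and 15 in replicates 1 and 3. Smooth muscle markers, from the muscle coat, were at 12.87 in LAO1 knockout replicate 1, against 13.71 and 13.61 in the other 2, and at 14.54 in IL4i1 knockout replicate 2, against 13.37 and 14.12. Their part in the spread of the 10 genes was not tested.

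Between DKO and wild type, the epithelial markers did not stand lower, with a list median of 0.22 and 3 of 10 below 0. Lgals4, a galectin of the epithelium, was at 18.91, 18.64 and 18.79 in the DKO, 16.86, 17.54 and 17.2 in LAO1 knockout colon, 18.45, 17.51 and 18.14 in IL4i1 knockout colon and 17.34, 17.48 and 17.25 in wild type. It rose in the DKO against the LAO1 knockout (difference 1.58, adjusted p = 0.0218), and its difference of 1.42 from wild type did not pass (adjusted p = 0.114). Scaled to the epithelial markers, a setting chosen after seeing the data that puts the median of all probes in this comparison at -0.29, Ceacam20 differed from wild type by -2.21 (adjusted p = 0.0595), Mep1a by -2.59 (0.211) and Cdhr5 by -1.04 (0.746). On the same scale Guca2b differed by 1.08. Lgals4 is among the markers used for this scaling, so its higher values in the DKO lower every scaled value there. In the list of stem cell and proliferation genes, 0 passed the adjusted threshold in the DKO against wild type. At an unadjusted p under 0.05, 9 of 18 were higher. List means were 7.78 to 8.99 in the DKO and 7.4 to 7.91 in wild type. The replication genes Mcm6, Mcm3 and Pcna differed by 1.74, 1.4 and 1.05. The stem cell genes Lgr5, Ascl2, Axin2 and Smoc2 differed by 0.02, -0.01, -0.43 and 0.17, and Mki67 by -0.02. Of the other cell cycle genes in the list, Top2a, Ccna2, Birc5 and Cdk1 differed by 1.21, 0.46, 0.46 and 0.34. Of the whole list 3 of 18 were below 0. Genes other than Mcm6, Mcm3 and Pcna were named here outside the selection by smallest p. Smooth muscle markers had a median of -0.54 (3 of 10 lower at an unadjusted p under 0.05) and T and innate lymphoid markers one of 0.64 (5 of 11 higher). The part of these lists in the differences of the 10 genes was not tested.

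Other genes of mature colonocytes were read from lists that hold none of the 10 genes. Of 18 surface colonocyte markers 0 passed, 4 were lower and 0 higher in the DKO than in wild type at an unadjusted p under 0.05, and the median was -0.59, with 13 of 18 below 0. For the LAO1 knockout this median was -0.3, and for the IL4i1 knockout 0.05. List means were 11.84 to 12.15 in the DKO and 12.5 to 12.82 in wild type. They were 11.97 to 12.97 in the LAO1 knockout and 11.6 to 13.32 in the IL4i1 knockout, so the DKO overlapped both. Other cell types also had medians below 0 in the DKO against wild type: enteroendocrine cells -0.47 (10 of 11 below 0, 2 lower at an unadjusted p under 0.05), fibroblasts -0.52 (7 of 9, 1 lower) and goblet cells -0.25 (9 of 12, 1 lower), with the goblet cell factor Spdef at -1.11 (adjusted p = 0.421). The sulfate transporter Slc26a2 was at 13.88, 14.16 and 13.99 in the DKO and 14.98, 15.15 and 15.06 in wild type. The DKO arrays lay lower without overlap (difference -1.05, SE 0.25, adjusted p = 0.328). Selenbp1, which oxidises methanethiol made by gut bacteria, was at 11.09, 10.48 and 11.42 in the DKO and 12.42, 11.99 and 12.81 in wild type (difference -1.41, SE 0.37, adjusted p = 0.387). Phgr1 differed by -1.84 (adjusted p = 0.448), and the cytochrome Cyp2c55 by -3.55 (adjusted p = 0.632), both without overlap with wild type. For Phgr1 and Cyp2c55 the DKO arrays overlapped those of both single knockouts. Cyp2c55 was at 14.73, 13.11 and 10.24 in the DKO, 13.24 in LAO1 knockout replicate 1 and 11.33 in IL4i1 knockout replicate 3. For Slc26a2 and Selenbp1 the DKO arrays lay below those of both single knockouts. Transcription factors of enterocytes gave 0 of 13 past the threshold and 0 at an unadjusted p under 0.05, with a median of -0.25 and 9 of 13 below 0. In the IL4i1 knockout the same list had a median of -0.33, with 11 of 13 below 0 and 2 lower at an unadjusted p under 0.05, and in the LAO1 knockout one of -0.16. In the DKO Klf4, which promotes differentiation of surface cells, differed by -0.51, the coactivator Ppargc1a by -0.76, the repressor Prdm1 by -0.4 and the intestinal homeobox gene Isx by -1.04 (adjusted p = 0.796 to 0.822). Klf4, Ppargc1a and Prdm1 differed from wild type by -0.64, -0.93 and -0.72 in the IL4i1 knockout. The 4 factors above 0 in the DKO, named after their values were seen, were Hnf4g (0.41), Elf3 (0.28), Cdx1 (0.12) and Klf5 (0.01).

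**Figure D4:**
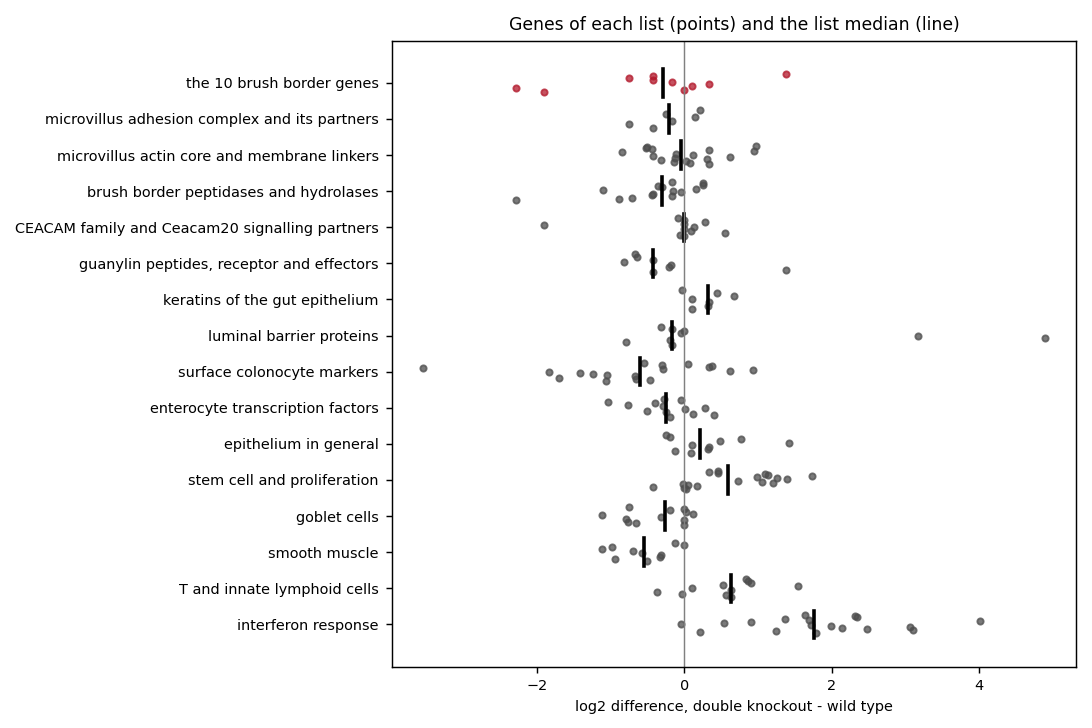
Each point is the log2 difference of 1 gene between double knockout and wild type, grouped by list, and the vertical line is the list median. The 10 brush border genes spread from -2.29 to 1.38 around a median of -0.29, the surface colonocyte markers have a median of -0.59, and the interferon response genes have the highest median of the lists drawn, 1.76.

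For a mean pattern, each of the 10 genes was centred and divided by its SD over the 12 arrays. Ceacam1, at its ceiling, thus counted as much as the rest. The mean pattern was compared with that of 19495 other named genes, as a description in which the arrays of a genotype share their source. Ptprr, a receptor-type tyrosine phosphatase, was most like it (Pearson r = 0.956, Spearman rho = 0.958), and r was 0.923 without the 2 arrays farthest from the median, IL4i1 knockout replicate 3 and LAO1 knockout replicate 2. Ppm1b (r = 0.911), Mkrn1 (0.908), Dennd1b (0.906) and Sucnr1 (0.895) came next, and then Efna1, Adamts13, Chn2, Atrnl1 and Lsm6, down to 0.872. With each genotype's mean removed, the most alike were Pgm2 (r = 0.975), Ptprr (0.959), Pls1 (0.955), Pank4 (0.944) and Tmigd1 (0.943), followed by Ralgds, Pgap6, Ndufs1, Stab1 and Slc9a3r1, down to 0.933. Pls1, which encodes an actin bundler of microvilli, Tmigd1 and the scaffold gene Slc9a3r1 stand in the list of the microvillus core, and Ptprr was the 1 gene found both ways. When Ceacam1 and Lypd8 were left out, a setting chosen after seeing the data, 5 of the 10 most alike genes were kept with values as deposited and 6 of 10 with genotype means removed. Those not kept were Ppm1b, Mkrn1, Efna1, Adamts13 and Lsm6 as deposited. With genotype means removed they were Pank4, Ralgds, Ndufs1 and Stab1.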

How the data were processed

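Total RNA of colon tissue, extracted with ISOGEN II per the labels' protocols, was labelled with biotin as cRNA for Affymetrix arrays. Transcriptome Analysis Console is named in the submitters' processing notes. The authors deposited log2 expression values for 22206 probes on 12 arrays, with a normalization not given in the sources used here. Groups and replicate numbers came from the sample labels. Probes were named from the platform annotation, with the probe of the highest mean per gene.

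The test was limma's (version 3.58.1, under R 4.3.3; functions lmFit and eBayes, 1 mean per genotype, 8 residual degrees of freedom), two-sided, with Benjamini-Hochberg adjustment over all probes; the fit was checked on simulated data. Means carry the SD over 3 arrays, and differences the SE of the fit. The 10 genes and the lists were chosen with earlier results of these data known. The text names the 10 genes, up to 4 genes per pathway list and up to 3 per marker list by smallest p in DKO against wild type, and the 10 genes most alike in pattern. Further genes of the epithelial, the stem cell and proliferation, and the transcription factor lists were named outside that rule. Alternatives were a replicate block, trend and robust options, quantile normalization, array weights, bright probes (above the 40th percentile), the compared arrays alone, leaving out each array, and scaling to epithelial markers. Deviations of arrays with the same replicate number correlated at -0.142 to 0.218, with a median of 0.0605. For arrays with different numbers the correlations were -0.315 to 0.287, with a median of -0.035. These ranges overlapped, and the arrays were not paired in the main fit. With the replicate block, probes past the threshold went from 106 to 166 in the DKO against the IL4i1 knockout. In the LAO1 and IL4i1 knockouts against wild type they stayed at 1 and 3.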

Additional observations from a re-analysis of the deposited data

How the results depend on the processing

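Of the 60 differences of the 10 genes, 20 changed sign under at least 1 alternative, none of them past the threshold, and 4 were 0 to 2 decimals as reported (3 of Ceacam1 and 1 of Lypd8) and had no sign to keep. The other 36 did not turn to the opposite sign under any alternative run. For Mep1a, Ceacam20 and Cdhr5 in the DKO against wild type the sign held in all 19 alternatives, at -2.68 to -1.8, -2.34 to -1.62 and -1.04 to -0.59, and none passed (lowest adjusted p 0.211, 0.0595 and 0.304). Guca2b lay between 1.08 and 1.63 there, and between 1.2 and 1.88 in the LAO1 knockout against wild type. With the replicate block, Ceacam20 differed by -1.91 (adjusted p = 0.243) and Mep1a by -2.29 (adjusted p = 0.223), and 0 members passed in any comparison. Ceacam20 in the DKO against the LAO1 knockout passed under 2 settings. Scaled to epithelial markers it was -2.41 (adjusted p = 0.00965), with the median of all probes there at -0.26. These markers include Lgals4, which was itself higher in that comparison and so lowers the scaled DKO values. Without IL4i1 knockout replicate 2 Ceacam20 was at -2.15 (adjusted p = 0.0398). The count of members past the threshold there was thus 0 to 1 when each array was left out and 1 when scaled. With array weights the median of the 10 genes in the IL4i1 knockout against wild type was -0.29, Cdhr2, Cdhr5 and Guca2a turned to -0.36, -0.23 and -0.2 there, and Cdhr5 to -0.07 in the LAO1 knockout against wild type. Scaled to epithelial markers, Cdhr2, Cdhr5, Guca2a and Lypd8 in the IL4i1 knockout against wild type turned to -0.17, -0.18, -0.17 and -0.13, where the median of all probes stood at -0.21, Krt20 in the DKO against wild type to -0.19, and Ceacam1, at its ceiling, to -0.06 (DKO against IL4i1 knockout) and -0.01 (interaction). With quantile normalization Vil1 in the IL4i1 knockout against wild type turned to 0.18. Leaving out each array in turn, the median ranged from -0.29 (without IL4i1 knockout replicate 2) to 0.32 in the IL4i1 knockout against wild type, and from -0.71 to -0.09 in the DKO against the IL4i1 knockout, with -0.83 to -0.14 for the interaction, the low ends without IL4i1 knockout replicate 3. In the IL4i1 knockout against wild type it gave -0.32 to 0.46 for Cdhr2, -0.2 to 0.3 for Cdhr5, -0.81 to 0.18 for Ceacam20, -0.34 to 0.48 for Guca2a, -0.83 to 0.64 for Krt20, -0.96 to 0.17 for Mep1a and -0.26 to 0.34 for Vil1. In the LAO1 knockout against wild type it gave -0.25 to 0.26 for Cdhr2, -0.19 to 0.28 for Cdhr5, -0.03 to 0.44 for Ceacam20, -0.22 to 0.2 for Guca2a and -0.37 to 0.07 for Vil1. In the DKO it gave -0.17 to 0.35 for Krt20 and -0.25 to 0.02 for Lypd8 against wild type, -0.5 to 0.18 for Guca2b and -0.25 to 0.02 for Lypd8 against the LAO1 knockout, and -0.53 to 0.94 for Krt20 against the IL4i1 knockout. The causes of these shifts were not tested. Each member had 1 probe, so averaging probes of a gene could change nothing. The ceiling of the scale limits Ceacam1, and 3 arrays a genotype limit the rest.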

Other observations

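Guca2a and Guca2b lie next to each other on chromosome 4, which also holds Lao1, and Ceacam20, Ceacam1 and Cdhr5 lie on chromosome 7 with Il4i1. The neighbourhood of Lao1 was looked at after the values of Guca2b in the LAO1 knockout were seen. Between Lao1 and Guca2a stand 16 coding genes, all 16 measured. In the LAO1 knockout against wild type 0 of them had an unadjusted p under 0.05 in limma's fit. Of all probes, 1.45% were higher at that p there, so a count of 0 in 16 genes is near that share. It tells nothing about the neighbourhood, and an effect of the place was not tested. The differences of the 16 genes ran from -0.38 to 0.38, with a median of -0.08 and 4 above 0. Guca2a differed by -0.08 and Guca2b by 1.56.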
